A study of Sus scrofa with 21 samples.

Results

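The genes described here encode proteins of the cytosolic ribosome and were followed in the distal small intestine of 21 piglets. They were chosen by name: symbols that begin with RPL or RPS and a digit, together with RPLP0, RPLP1, RPLP2 and RPSA, and without the RPS6K kinases. Of 18661 genes with an expected count, 51 carried such a symbol, 26 named for the large and 25 for the small subunit. A count filter left 49 of them (24 large, 25 small) among 13127 tested genes. The 2 that did not pass were RPL10L, a testis-associated copy with 0 to 1 counts per piglet, and RPL3L, a copy typical of striated muscle with 0 to 28 counts. Of the 49, 45 are structural proteins of the ribosome and 4 are relatives or second copies (RPL7L1, RPL26L1, RPL36AL and RPS27L). Names of this kind that have no row here, RPS6 among them, were not analysed here.

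The piglets were Danish Landrace/Yorkshire animals, followed from birth and killed at 24 to 25 days. Control piglets (n = 10) received a milk replacer, and starch piglets (n = 11) received that replacer with wheat added. RNA came from whole tissue, so fewer cells of a type and less RNA per cell cannot be told apart. The labels give neither sex nor litter, and nothing else that would link piglets.

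A cytosolic ribosome is built from a small subunit, which reads the messenger RNA, and a large subunit, which joins the amino acids. Each subunit is ribosomal RNA clothed in many different proteins, and most of these are present once per ribosome. Their messenger RNAs are short and abundant, and many begin with a terminal oligopyrimidine tract through which mTOR signalling controls their translation. The renewing epithelium of the gut makes many ribosomes, most of all in the dividing cells of the crypts.

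Total expected counts lay between 6719264 and 8610458 per piglet. FPKM, scaled for length and depth, compares one gene with another, and CPM, counts scaled to library size with TMM factors, compares piglets. A piglet's score averages its members' log2 CPM, each taken relative to that gene's mean in the 21 piglets. The tissue label was checked against markers of absorptive enterocytes (FABP2, APOA4, SI, VIL1, APOB and MTTP). All 6 had counts in every piglet, but their summed CPM was 237 in control 5, 246 in control 8 and 196 in starch 3, against 3626 to 17383 in the other 18. Those 3 piglets were retained, and some results are also given without them.

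Ribosomal protein genes were among the most abundant transcripts of the tissue. The 45 structural members had a median of 1937 FPKM, against 14.9 over all tested genes, and 35 of them exceeded 1000 FPKM. By mean FPKM, 17 members stood among the 50 highest genes, 32 among the 100 highest and 42 among the 200 highest.

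In the large subunit the structural genes had a median of 2263 FPKM. The highest was RPL23A, whose protein sits at the exit of the peptide tunnel, with 4902 ± 926 FPKM in the 10 control piglets and 5122 ± 1216 (mean ± SD) in the 11 starch piglets. RPL23 followed with 3186 FPKM over all piglets, then RPL6 with 2964 and RPL37 with 2898. The stalk proteins, which bring elongation factors to the ribosome, were at unequal levels: RPLP0 had 2865 FPKM, RPLP1 2341 and RPLP2 962. RPL5, which binds the 5S ribosomal RNA, had 1471 FPKM, and RPL3, which lies near the catalytic centre, had 1303. The lowest structural large subunit gene was RPL27, with 789 FPKM.

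In the small subunit the median was 1843 FPKM. RPS24 led with 4973 ± 1082 FPKM in the 10 control piglets and 4856 ± 1385 (mean ± SD) in the 11 starch piglets, and RPS20 and RPS15A were also high, with 3564 and 2997. RPS3, which lies where messenger RNA enters, had 1855 FPKM, and RPSA, also known as the laminin receptor, had 943. RPS29 was the lowest structural member of either subunit, with 261 FPKM.

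Over the 49 members mean FPKM had r = 0.10 and rho = 0.21 with coding length, the only length the files give, as a description across genes. The shortest members were low all the same. The 5 structural members with coding sequences of up to 300 bases had a median of 482 FPKM, and RPL37 was the only one of them over 1000. RPL38, RPS28, RPS21 and RPS29 had 885, 482, 360 and 261. The 40 longer ones had a median of 1948 FPKM, and 34 of them exceeded 1000. Whether short sequences were recovered less well was not tested.

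**Figure D1:**
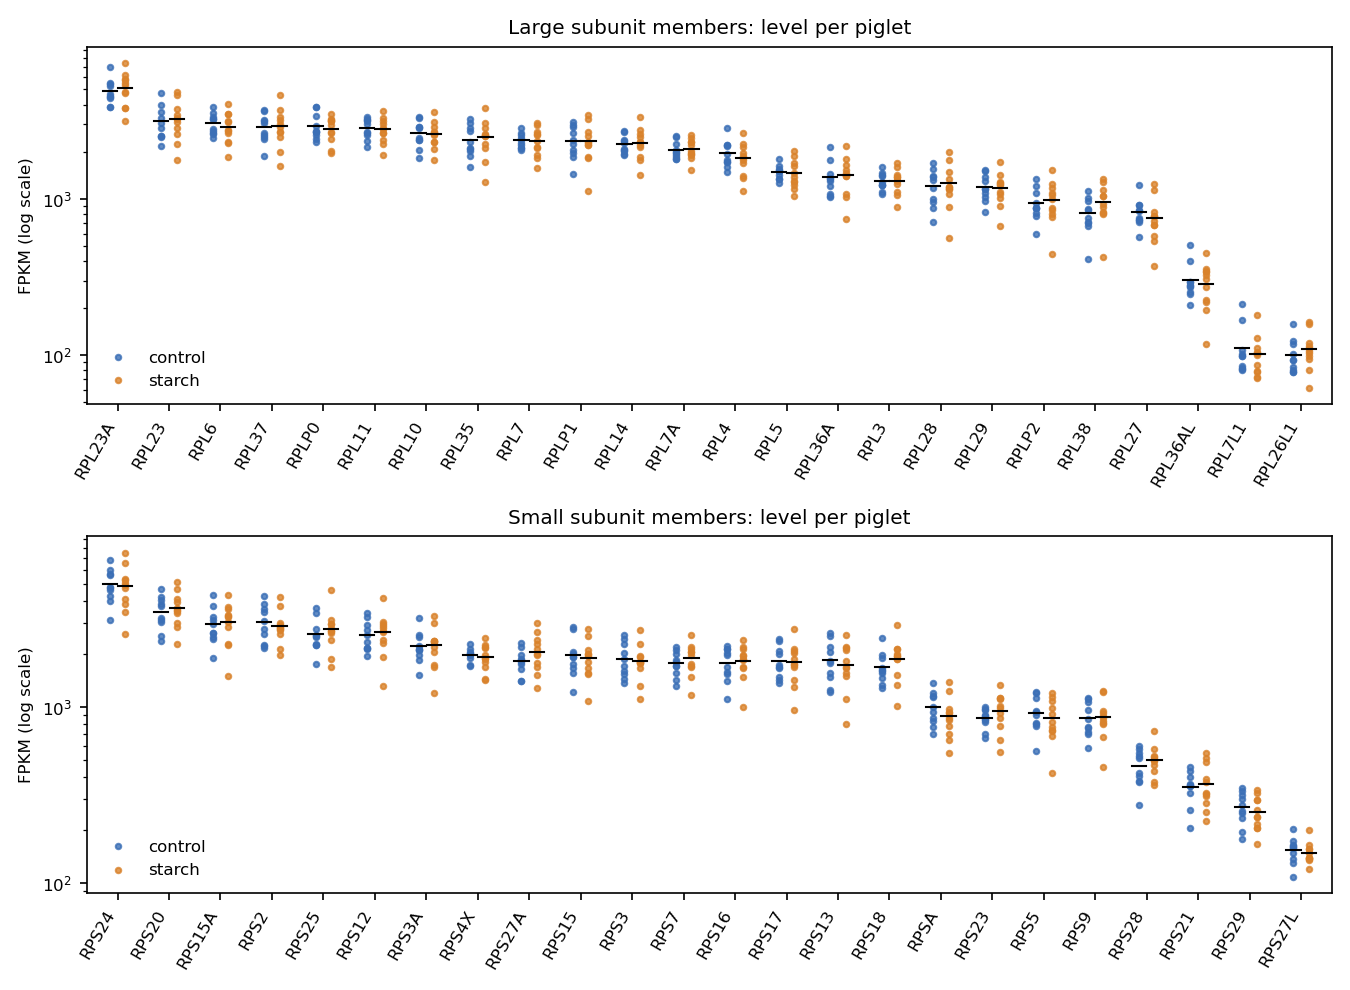
Level of tested members per piglet, in FPKM on a log axis, for the large (top) and small subunit (bottom), with members in order of their mean. Each point is a piglet (blue control, orange starch) and each bar a diet mean; RPL23A and RPS24 lead at means of 5017 and 4912 FPKM, the 4 relatives lie at the low end, and the points of both diets overlap for every member shown.

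The first comparison asked whether starch in the replacer went with a different amount of ribosomal protein transcripts. No difference larger than the spread between piglets was found. The 51 members took 4.66 ± 0.797% of expected counts in the 10 control piglets and 4.61 ± 1.00% (mean ± SD) in the 11 starch piglets. In control piglets the share ran from 3.47% (control 10) through a median of 4.41% to 6.01% (control 8). In starch piglets it ran from 2.80% (starch 5) through 4.61% to 6.57% (starch 11). The lowest and highest of all 21 shares were therefore both on starch, and every control value lay between them.

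Neither subunit differed by more than the spread. Large subunit genes took 2.52 ± 0.399% of counts in control and 2.48 ± 0.516% in starch piglets, and small subunit genes 2.15 ± 0.400% and 2.13 ± 0.492% (SD, n = 10 and 11). Summed large over summed small subunit counts gave 1.18 ± 0.0441 in control and 1.17 ± 0.0511 in starch piglets. This ratio stayed between 1.10 (starch 11) and 1.28 (control 10), a 1.16-fold range, while the share itself ranged 2.35-fold. Genes encoded in mitochondria took 16.4 ± 1.78% of counts in control and 19.0 ± 3.81% in starch piglets. With these genes left out of the total, the members' share was 5.58 ± 0.949% in control and 5.71 ± 1.28% in starch piglets, so the sign of the small difference turned.

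**Figure D2:**
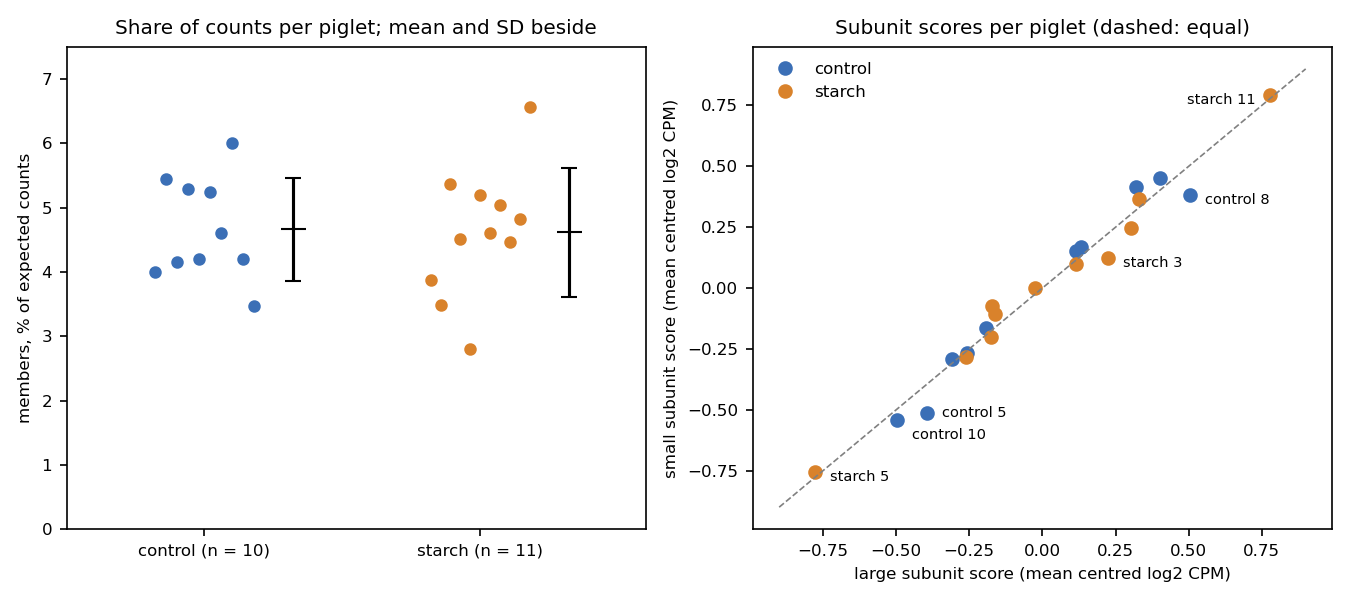
Left, the share of expected counts in ribosomal protein genes, 1 point per piglet in sample order, with mean and SD beside each diet. Right, small against large subunit score, 1 point per piglet, with the dashed line marking equality; piglets lie close to the line from starch 5 (-0.78 large, -0.76 small) to starch 11 (0.78 large, 0.79 small), and both diets occupy its whole middle part.

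Gene by gene, edgeR's quasi-likelihood test over all 13127 genes called 0 of 49 members at an adjusted p of 0.05, with 0% of all genes called. At an unadjusted p under 0.05 it again gave 0 of 49 members, against 1.33% of all genes. The point estimates were higher on starch for 35 members and lower for 14. Their median log2 fold change was 0.049, against 0.0039 over all tested genes. It was 0.041 in the large subunit (18 of 24 higher) and 0.053 in the small subunit (17 of 25 higher). This lean rested on single piglets: the median was -0.046 without starch 11, -0.0058 without control 10, -0.0045 without control 5 and 0.10 without starch 5. Without control 5, control 8 and starch 3 it was 0.041.

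Among genes with higher estimates on starch, the smallest p-values belonged to RPL38, RPS27A, RPS18, RPS23 and RPL26L1. RPL38, a surface protein known from mice for its part in translating Hox messages, had 59.0 to 183 CPM in control (median 123) and 63.2 to 248 CPM in starch piglets (median 136). The groups overlapped over nearly their whole range, with starch 8 and starch 11 above all controls. Its log2 fold change was 0.26 ± 0.21 (SE), with a 95% interval from -0.18 to 0.70 (p = 0.231; adjusted p = 0.9998, edgeR). RPS27A, made as a fusion with ubiquitin, had 461 to 1039 CPM in control (median 739) and 516 to 1458 in starch piglets (median 770). The starch piglets 6, 8 and 11 exceeded every control, and the log2 fold change was 0.22 ± 0.18 (SE). RPS18, of the small subunit head, differed by 0.20 ± 0.19, and RPS23, of the decoding centre, by 0.18 ± 0.16. Both intervals included 0.

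Among genes with lower estimates, RPSA had 539 to 1158 CPM in control (median 781) and 438 to 1186 in starch piglets (median 705). Its log2 fold change was -0.11 ± 0.18 (SE), with a 95% interval from -0.48 to 0.25. RPL7L1, RPS29, RPL27 and RPL4 followed with -0.092, -0.086, -0.083 and -0.067. The lower tail was thus shallower than the upper one, and no estimate in it reached its own SE.

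The stalk and core proteins other than RPLP2 lay near 0. RPLP0 had a log2 fold change of -0.036 and RPLP1 of 0.017. RPLP2 was higher, at 0.11 ± 0.21 (SE), with a 95% interval from -0.32 to 0.54. RPL3 had 0.049, RPL5 0.031 and RPS3 -0.0045. RPS4X, the X-linked small subunit gene, was measured most precisely: it had 1182 to 1727 CPM in control (median 1375), 1046 to 1938 in starch piglets (median 1354) and a log2 fold change of 0.0025 ± 0.12 (SE), with a 95% interval from -0.25 to 0.26. Standard errors over the members ran from 0.12 (RPS4X) to 0.22 (RPL36AL). The widest limits of any member's interval were -0.52 (RPS13) and 0.70 (RPL38), which are the sizes of change that these piglets could not exclude.

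**Figure D3:**
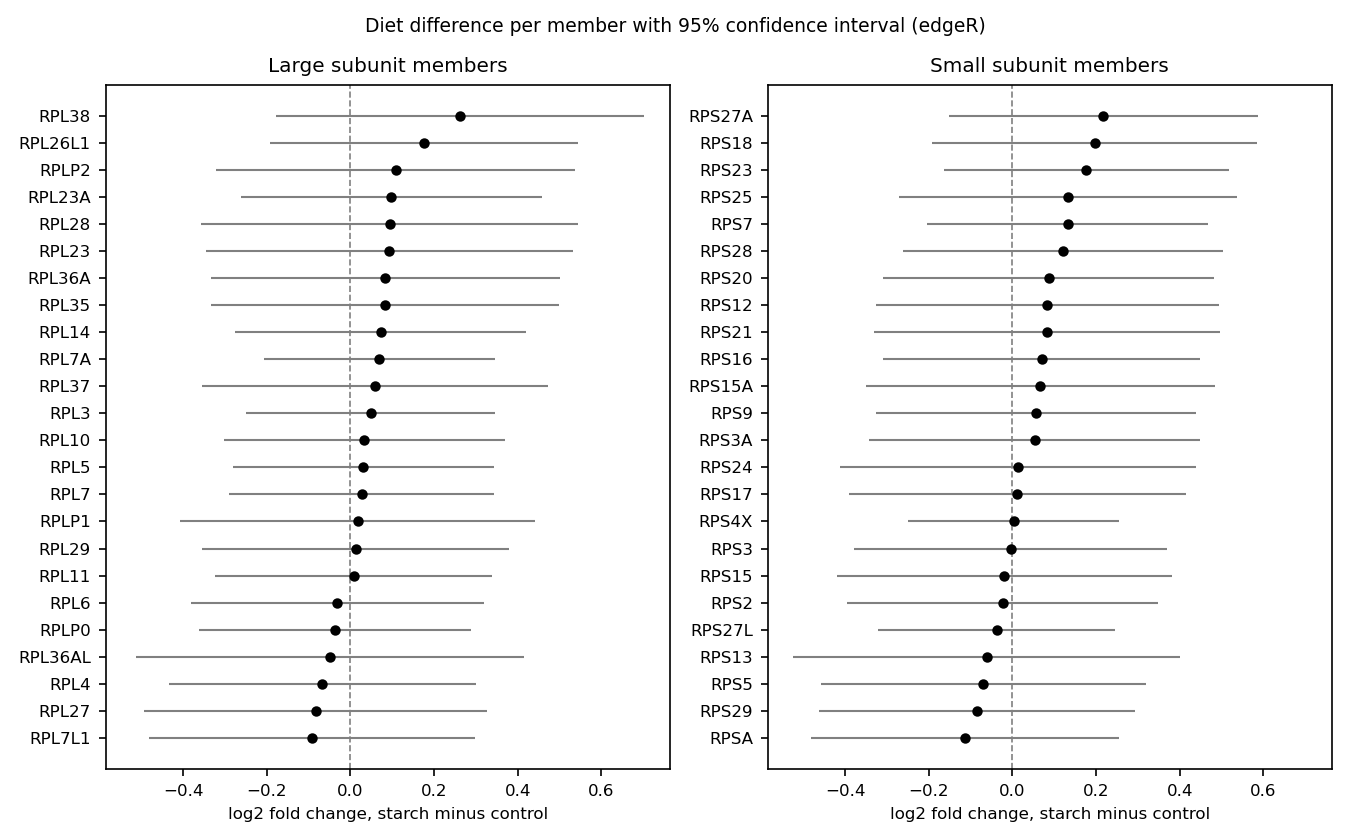
Diet difference of tested members (log2 fold change, starch minus control, edgeR), with large subunit genes on the left and small subunit genes on the right. Points are estimates and lines are 95% confidence intervals; every interval crosses the dashed line at 0, from RPL38 (0.26) at the top to RPSA (-0.11) at the bottom.

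Piglets differed far more than diets. The score ran from -0.77 (starch 5), -0.52 (control 10) and -0.46 (control 5) up to 0.43 (control 6), 0.44 (control 8) and 0.79 (starch 11), while the diet means were -0.019 ± 0.37 in control and 0.017 ± 0.40 in starch piglets (SD, n = 10 and 11). The genes moved as a block. In starch 11 and control 6 all 49 members were above their own mean over piglets, and in starch 5, control 10, starch 2 and control 3 none was. Starch 5 had the lowest CPM of 37 members, control 5 of 8, control 10 of 2, and control 4 and control 9 of 1 each. Starch 11 had the highest CPM of 46.

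Members differed in the size of their range. The highest CPM of a member exceeded its lowest 3.13-fold in the median, from 1.85-fold for RPS4X to 4.69-fold for RPL36AL. RPL23A, for example, had 1471 to 2911 CPM in control (median 1817) and 1248 to 3506 in starch piglets (median 2137). RPS24 had 1020 to 2488 CPM in control (median 1684) and 880 to 3114 in starch piglets (median 1697). In both genes starch 5 was the lowest and starch 11 the highest of all piglets.

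Over the 21 piglets the score of the large subunit followed that of the small subunit with Pearson's r = 0.99 and Spearman's rho = 0.98, and with r = 0.98 without starch 11 and starch 5. Within diets r was 0.98 in control and 0.99 in starch piglets. These points share libraries and scaling factors, and the values are given as a description. Pairs of members had a median r of 0.87 over piglets (0.89 within the large subunit, 0.86 within the small, 0.87 between them), and 96.3% of the 1176 pairs exceeded 0.5. Pairs of all tested genes had a median of -0.0022. The median for members was 0.81 without starch 5 and starch 11.

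**Figure D4:**
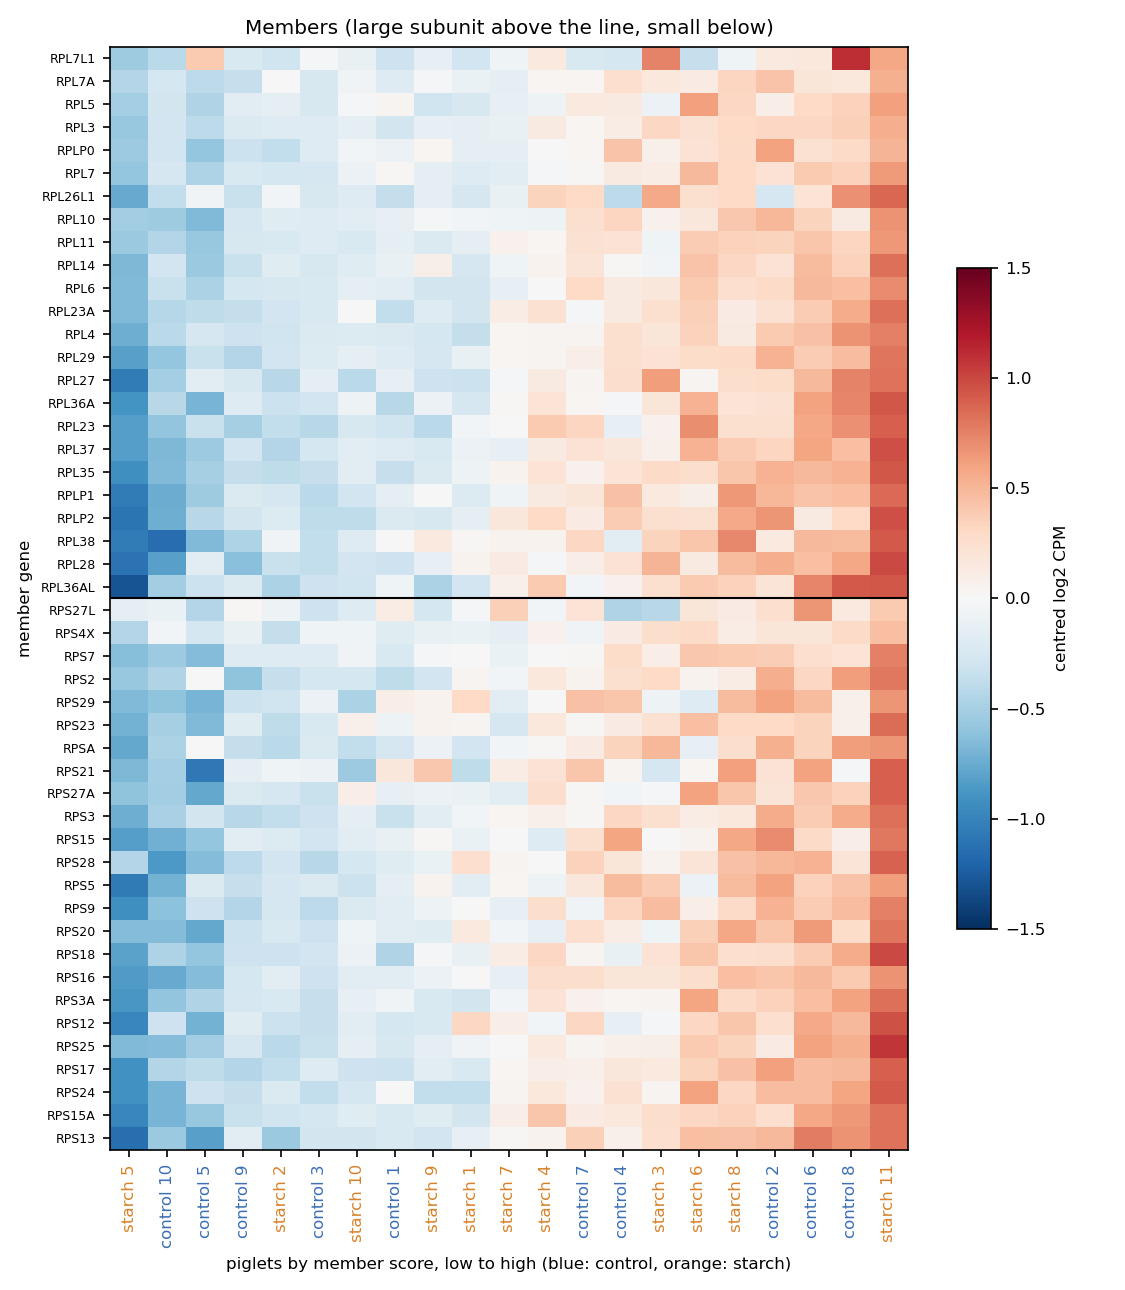
Centred log2 CPM of tested members (rows, large subunit above the line) in 21 piglets (columns, ordered by score; blue labels control, orange starch). Blue cells lie below and red cells above the gene's mean; starch 5 is blue in every row and starch 11 red in every row, while RPL7L1 and RPS27L break the pattern in several columns.

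RPS21 and RPS29 followed the block less closely than the rest. Each structural member's r with the mean of the other members ran from 0.76 (RPS21) and 0.81 (RPS29) up to 0.99 (RPL35), with a median of 0.94. RPS21 and RPS29 are among the shortest and least abundant structural members. RPL38 was furthest from the mean of the other members in control 10, at -0.64 on the log2 scale, and RPS4X stood at 0.49 from it in the same piglet.

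The 4 relatives behaved differently from one another. RPL36AL, a near-identical copy of RPL36A, had r = 0.93 with the other members, and RPL26L1, a near-identical copy of RPL26, had r = 0.77. The authors' counting could divide reads between such copies, so the levels of RPL36AL and RPL26L1 are uncertain. RPL26 and RPS27 themselves are among the names that have no row here. RPS27L, a relative of RPS27 known as a p53 target, had 21.2 to 46.2 CPM in control (median 30.6) and 21.9 to 38.4 in starch piglets (median 28.3), with r = 0.55 and one of the smallest spreads of all members. Relative to the other members it stood at 0.64 on the log2 scale in starch 5, where structural genes were lowest, and at -0.62 in control 4.

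RPL7L1, whose protein takes part in processing ribosomal RNA precursors and is no structural component, also had r = 0.55 with the members. It had 52.8 to 151 CPM in control (median 64.0) and 48.2 to 117 in starch piglets (median 64.4). Its 2 highest levels were in control 8 (151 CPM) and starch 3 (117 CPM), and control 5 reached 92.0 although its ribosomal protein score was among the lowest. Against the mean of 43 ribosome assembly genes (nucleolar and processing factors such as NCL, FBL and NOP56), RPL7L1 had r = 0.88 and rho = 0.67 over 21 piglets, where structural RPS4X had r = 0.46. RPL26L1 had r = 0.65 (rho = 0.52), RPL36AL 0.47 and RPS27L -0.23. RPL7L1 stood above the members in the 3 piglets with few enterocyte transcripts, and its r with the enterocyte score was -0.76. That r was -0.46 for RPL26L1, -0.25 for RPL36AL, -0.24 for RPS4X and 0.42 for RPS27L. The part of cell composition in this was not tested.

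The size of a member's spread between piglets went with its coding length. Across the 49 genes the SD of log2 CPM had r = -0.61 and rho = -0.68 with coding length, a description over genes that share the same libraries. The largest SDs were those of RPL36AL (0.53), RPL38 (0.53), RPS13 (0.52) and RPL28 (0.51). The smallest were those of RPS4X (0.23), RPL7A (0.26), RPS27L (0.29) and RPL3 (0.29), of which only RPS27L has a short coding sequence. The median SD of members was 0.42, against 0.45 over all tested genes and 0.38 over 5008 other genes with a mean above 30 CPM, so it lay between these medians.

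Tested genes outside the 49, mitochondrial ribosomal protein genes, RACK1 and FAU included, also moved with the score according to their coding length. Genes without a symbol were counted among them, and whether any of these encode cytosolic ribosomal proteins was not tested. The mean centred log2 CPM of 243 other genes with up to 300 coding bases had r = 0.93 with the score, and 690 genes of over 300 and up to 480 bases had r = 0.94. The sign turned with length: r was 0.79 for over 750 and up to 1200 bases, -0.59 for over 1200 and up to 2000 and -0.85 over 4000. CPM values are relative to the other genes of a library, so the classes cannot all rise together. The turn of sign is therefore partly set by the scaling. In starch 11 the shortest class stood at 0.53 and the longest at -0.38, and in starch 5 they stood at -0.47 and 0.24. Ribosomal protein genes lay beyond their own class in both piglets: those of over 300 and up to 480 bases were at 0.88 in starch 11, where other genes of that length were at 0.44, and at -0.90 in starch 5, where the others were at -0.39. The 9 members of over 750 and up to 1200 bases were at 0.64 and -0.60, where other genes were at 0.072 and -0.083. Both piglets were picked by the score of these same members, so a larger shift of members there is partly built in. After the mean of other genes in the same class was subtracted in each piglet, pairs of members still had a median r of 0.72. Total count per piglet had r = -0.63 with the score. The part of library preparation or RNA quality in these differences between piglets was not tested.

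**Figure D5:**
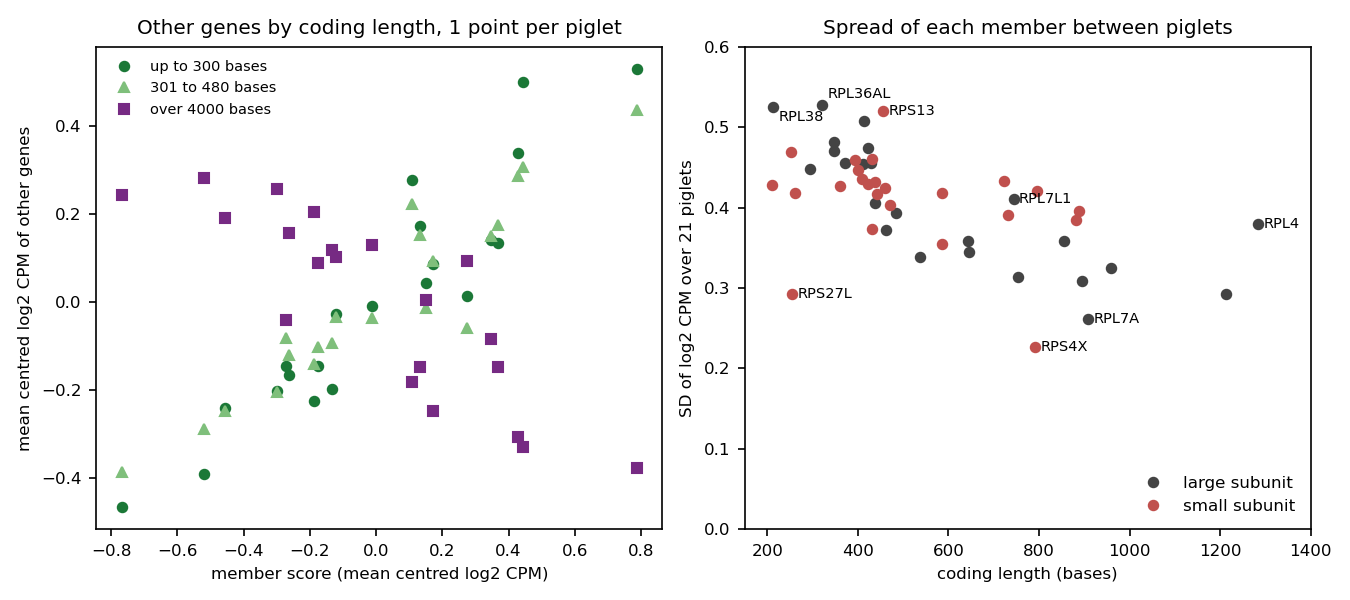
Left, mean centred log2 CPM of other genes in 3 coding-length classes against the ribosomal protein score, 1 point per class and piglet; the 2 short classes climb with the score while genes over 4000 bases descend. Right, SD of log2 CPM over 21 piglets against coding length for tested members; RPL38 and RPL36AL both lie at 0.53, and the longer RPS4X and RPL7A at 0.23 and 0.26.

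Cell type markers followed the score only partly. The enterocyte score had r = -0.087 with it over 21 piglets and 0.23 without starch 3 and control 8, and the 3 piglets low in enterocyte transcripts had ribosomal protein scores of -0.46 (control 5), 0.44 (control 8) and 0.17 (starch 3). Crypt stem cell markers had r = 0.018, with -0.30 in control and 0.45 in starch piglets. The 4 tested markers were split: SMOC2 had r = 0.55, and OLFM4, RGMB and LGR5 had -0.13, -0.18 and -0.29. Cell cycle genes had r = 0.19 (rho = 0.030), with -0.22 in control and 0.45 in starch piglets, and -0.16 without starch 5 and control 8. The difference between diets in these relations was not tested. Neuron and glia markers had 0.56, fibroblast 0.47, macrophage and goblet 0.44 each, and smooth muscle and T-cell markers 0.43 each. Without the 2 piglets farthest from each list's median, these became 0.39, 0.26, 0.68, 0.61, 0.34 and 0.40 in the same order. Summed smooth muscle markers (7 of 7 with counts in every piglet) ran from 8572 to 38008 CPM in control and 6203 to 24131 in starch piglets. Summed B-cell markers (4 of 7 with counts in every piglet) ran from 9.87 to 142 CPM in control and 8.90 to 627 in starch piglets, with medians of 22.7 and 14.8. Their r with the score was 0.12 (rho = 0.40), and 0.44 without starch 10 and starch 9. All 4 tested B-cell markers had higher estimates on starch, 2 of them at an unadjusted p under 0.05, against 0.404% of all genes that were higher at that level. The medians ran the other way: starch 10 and starch 9 had the highest B-cell scores, 4.39 and 3.99, and the next was control 1 with 2.27. Summed goblet markers (5 of 5 measured) ran from 515 to 3686 CPM in control and 424 to 1620 in starch piglets, with medians of 879 and 565. Control 8 (3686) and control 5 (2208), both low in enterocyte transcripts, lay above every other piglet. Starch 3 had 1617, and the 18 piglets other than these 3 ran from 424 to 1620. All 5 goblet markers had lower estimates on starch, 2 of them at an unadjusted p under 0.05, against 0.922% of all genes that were lower at that level. Goblet estimates without these 3 piglets are not given. The part of these cell types in the score was not tested.

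Other genes of translation were read in the same fit, from lists written by function. RACK1, a scaffold protein on the small subunit, had r = 0.92 with the members and a log2 fold change of -0.049. FAU, the fusion gene of RPS30, had r = 0.096; its longest listed coding sequence, 1842 bases, exceeded the 1284 bases of the longest member (RPL4). Elongation factors and other mRNAs with oligopyrimidine tracts (13 of 18 tested) followed the members closely as a group, at r = 0.89, with EEF1D at 0.94 and EEF1B2 at 0.91, whereas EEF2 had -0.12. Averages of other genes by coding length had r from 0.93 (up to 300 bases) to -0.85 (over 4000 bases). The part of coding length in the r of this and the following lists was not tested. The diet estimates of these 13 genes were higher for 3 and lower for 10, with a median of -0.0068 and 0 past either threshold.

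Mitochondrial ribosomal protein genes (64 tested), which serve the separate ribosome inside mitochondria, had r = 0.83 with the score and a median pairwise r of 0.56. By diet, 32 were higher and 32 lower, with a median of -0.00040. At an unadjusted p under 0.05, against 1.33% of all genes, there was 1 among the 64, MRPL49 (log2 fold change 0.39, p = 0.0204, adjusted p = 0.9998 by edgeR). Initiation factors (22 tested, 8 higher and 14 lower) had r = 0.72 as a mean and RNA polymerase I genes (14 tested, 5 higher and 9 lower) had 0.69, with 0 past either threshold. Neither list moved as a block. Single initiation factors had an r above 0 in 14 cases and below 0 in 8, with the lowest at -0.70. For RNA polymerase I genes, 10 were above 0 and 4 below, with the lowest at -0.84. Among initiation factors EIF5B, which joins the subunits, had the smallest p (log2 fold change -0.32 ± 0.19, SE).

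As means, ribosome assembly genes followed the members less closely, and growth signalling genes ran the other way. The 43 assembly genes had r = 0.34 and rho = 0.20 with the score (r = 0.19 without control 8 and starch 3) and were highest in control 8 (0.73) and starch 3 (0.59). Singly, 33 of them had an r above 0 and 10 below. Their diet estimates were higher for 13 and lower for 30, with a median of -0.045 and 0 past either threshold. Genes of mTOR and MYC signalling (19 tested) had r = -0.71 as a mean, but not as a block: 12 had an r below 0 and 7 above. The highest were the S6 kinase gene RPS6KB2 at 0.74, the translation repressor EIF4EBP1 at 0.58 and AKT1S1, a subunit of the mTOR complex, at 0.52, and MYC itself had 0.21. At the low end, the kinase gene MTOR had r = -0.91 and LARP1, which binds oligopyrimidine tracts, -0.92. The diet estimates of MTOR and LARP1 were 0.0014 and -0.13, with neither past a threshold. Both genes reached their highest CPM in piglets with low scores, MTOR in control 10 and LARP1 in starch 5. Both encode large proteins, and the part of coding length in these values was not tested.

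Of the 51 members, 22 had a single listed transcript and 29 had more, but in only 6 did at least 2 coding lengths take 5% or more of the gene's counts. These 6 (RPL7A, RPL10, RPLP0, RPS24, RPS25 and RPSA) were singled out after their values were seen. The authors' estimate divided reads between transcripts that share most of their sequence, so these shares are uncertain. RPS24 varied most. Its 396-base form took 55.9 ± 8.29% of the gene's counts in the 10 control piglets and 49.97 ± 10.3% (mean ± SD) in the 11 starch piglets, from 34.3% in starch 11 to 70.5% in starch 5, the piglets with the highest and lowest scores. By diet this gave the smallest p of the 6 genes (p = 0.161, two-sided permutation test with 100000 resamples), which did not pass 0.05. Its 399-base form ran from 2.29% in starch 5 to 31.3% in starch 3, and control 8 and control 5 had 26.4% and 28.7%. All 3 piglets low in enterocyte transcripts were thus among the piglets with the most RPS24 counts in this form, together with starch 11 at 30.6%. The main forms of RPL10 (645 bases) and RPS25 (378 bases) took 90.2% and 92.1% over all piglets, and those of RPL7A (909 bases) and RPSA (888 bases) 66.4% and 76.6%.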

How the data were processed

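RNA sequencing covered distal small intestine of 21 piglets, 10 on milk replacer and 11 on replacer with wheat. Per the file headers, the authors deposited for each piglet a transcript table with a length, an expected count (an estimate, often fractional) and FPKM, which the authors had scaled for length and depth. HISAT and DESeq2 are named in the submitters' processing notes, with no version or role; for the counting program and genome build, nothing is given in the sources used here. Lengths were multiples of 3 in 99.96 to 99.97% of transcripts and are called coding lengths. A gene's length is that of its longest listed transcript.

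Gene versions were removed, expected counts were summed per gene and rounded, and FPKM values were summed per gene. Symbols came from a table of pig gene names, which matched 14276 of 18661 genes (76.5%). It held 58 names that fit the rule, and 51 had counts. The fit was edgeR 4.0.16 (R 4.3.3), quasi-likelihood, with TMM, filterByExpr (minimum count 10, total 15) and diet as the only term. It ran over all genes, with Benjamini-Hochberg adjustment at 0.05. The test was checked on counts simulated with 200 changed genes. Log2 CPM used a prior count of 2. Permutation tests used SciPy 1.17.1 and figures matplotlib 3.10.9.

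Some items are counted in totals but not reported here singly. The members and gene lists were chosen with earlier results of these data known. Named were RPSA, the 3 stalk genes, RPL3, RPS3 and RPL5; the 4 members per subunit with the highest FPKM; 5 per direction with the smallest p; 4 each with the largest and smallest SD; and the relatives. Members were also named where a count of few genes was given, after their values were seen. Summed scores received no test, and correlations are descriptions. Alternatives were RLE and upper-quartile scaling, TMM without ribosomal and mitochondrial genes, DESeq2 1.42.0, voom with quality weights and log2(FPKM + 0.1), log2(FPKM + 0.5) or log2(FPKM + 1) in limma 3.58.1, other filters, structural members only, mitochondrial genes out of the total, a replicate block and omission of piglets. No reference genome was used, and coordinates and sequences are not given. P-values set each difference between diets against the spread between these piglets. Counting error is small beside that spread for abundant genes.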

Additional observations from a re-analysis of the deposited data

Results flagged for a closer look

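In control piglets 31 quantities (the levels of named members, shares and ratios) were screened for a piglet far from the other 9, and 2 were found; chance alone gives about 1 in 20. The starch group of 11 was not screened. Summed large over small subunit counts were 1.28 in control 10, and the nearest control piglet had 1.20. Control 10 also had the lowest score of the controls, and starch 5, lowest of all piglets, had a ratio of 1.27. Over all 21 piglets this ratio had r = -0.71 and rho = -0.64 with the score, and r = -0.53 without control 10 and starch 5. RPL7L1 had 151 CPM in control 8, and the nearest control piglet, control 5, had 92.0. Control 8 and control 5 were 2 of the 3 piglets low in enterocyte transcripts. The part of cell composition in either value was not tested.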

How the results depend on the processing

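No alternative called a member. In 34 refits, 0 members and 0 genes overall passed an adjusted p of 0.05, and 0 members had an unadjusted p under 0.05. The median pairwise r of members, 0.87, became 0.89 without control 5, control 8 and starch 3, 0.81 without starch 5 and starch 11 (chosen after seeing the data), 0.80 on log2(FPKM + 0.5) and 0.72 after subtracting other genes of the same coding-length class (also chosen after seeing the data). The members' median log2 fold change lay between -0.046 and 0.10 when single piglets were left out and at -0.012 on each log2(FPKM) scale. The difference in their share of counts (starch minus control) lay between -0.24 and 0.13 percentage points.

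Of 29 named members, RPL26L1, RPL38, RPL7A, RPS18, RPS23, RPS27A, RPS29 and RPSA kept their sign throughout; the other 21 turned in at least one refit, and the cause was not tested. Scaled as FPKM, with any of the 3 pseudocounts (0.1, 0.5 or 1), RPL3 was at -0.0068, RPL5 at -0.041, RPLP1 at -0.033, RPS24 at -0.058 and RPS4X at -0.059. Voom with quality weights gave RPL36AL 0.028, RPL4 0.00652, RPL6 0.00161, RPLP0 0.00149, RPS13 0.018, RPS27L 0.050, RPS3 0.089 and RPS4X -0.015. Without control 5, control 8 and starch 3, RPL36AL was at 0.0228, RPL7L1 at 0.055, RPS3 at 0.015 and RPS4X at -0.018. Without starch 5 and starch 11, RPLP1 was at -0.00993, RPS24 at -0.035 and RPS4X at -0.0097. RPS4X was at -0.0026 with upper-quartile scaling and RPS3 at 0.00100 without a filter.

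Whole profiles gave no sign that replicate numbers pair the piglets: same-numbered piglets had r from -0.34 to 0.48, 4 of 10 pairs over 0.1, and in 0 pairs was the own number the best match. A weaker link between piglets could go unseen in such profiles. The replicate block, which leaves out starch 11, called 0 members and gave a median of -0.045. Under the block RPL23 was at -0.00317, RPL28 at -0.015, RPL3 at -0.0098, RPL37 at -0.055, RPL5 at -0.053, RPLP1 at -0.080, RPLP2 at -0.013, RPS15A at -0.016, RPS24 at -0.10 and RPS4X at -0.056. The block gave -0.24 percentage points for the share and -0.0022 for the log2 ratio of large to small subunit counts (-0.011 over all piglets).

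When single piglets were left out, estimates ranged from -0.013 to 0.19 for RPL23, -0.0013 to 0.18 for RPL23A, -0.19 to 0.0097 for RPL27, -0.031 to 0.18 for RPL28, -0.012 to 0.10 for RPL3, -0.17 to 0.077 for RPL36AL, -0.066 to 0.14 for RPL37 and -0.17 to 0.016 for RPL4. They ranged from -0.041 to 0.080 for RPL5, -0.12 to 0.027 for RPL6, -0.19 to 0.080 for RPL7L1, -0.097 to 0.040 for RPLP0, -0.089 to 0.096 for RPLP1, and -0.010 to 0.20 for RPLP2. The ranges were -0.17 to 0.032 for RPS13, -0.029 to 0.15 for RPS15A, -0.0068 to 0.18 for RPS20, -0.11 to 0.086 for RPS24, -0.085 to 0.049 for RPS27L, -0.11 to 0.064 for RPS3 and -0.049 to 0.047 for RPS4X. Depth did not limit abundant members, whereas RPL10L and RPL3L were too low to test.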

Other observations

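RPL3L, the copy of RPL3 that is typical of striated muscle, was detected at a mean of 0.974 FPKM, far under the 1303 FPKM of RPL3. It ran from 0 to 3.09 CPM in control piglets, with the highest value in control 9 and 0 in control 5, and from 0.12 to 1.68 CPM in starch piglets. RPL10L was listed with 1 count in starch 8 and with 0 in the other piglets.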
